A study of Mus musculus with 6 samples.

Results

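White and brown adipocyte marker genes were examined in infarcted mouse hearts. The group holds 10 of the 38293 genes in the count table: 8 markers of white or of all adipocytes (Cidec, Plin1, Adig, Adipoq, Cfd, Retn, Lep and Car3) and 2 markers of brown adipocytes (Ucp1 and Cidea). They were selected by gene symbol after Cidec and Adig had been seen higher in Zeb2 cKO hearts. Their differences between the genotypes are therefore a description without a test, and nothing is concluded from them. Zeb2 cKO mice carry 2 floxed Zeb2 alleles and a Cre recombinase driven by the murine Myh6 promoter, which is active in cardiomyocytes. The group labelled WT is described in the study's methods as Zeb2 fl/fl, that is, mice with the same floxed alleles and without the Cre. Deletion of Zeb2 and presence of the Cre therefore cannot be told apart. All mice were adults of the backcrossed C57BL/6J strain, and the left anterior descending artery had been tied permanently 14 days before the heart tissue was taken. There were 3 mice per genotype. The labels place the tissue in the border region of the infarct, whereas the methods place it in the remote zone.

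Adipocytes store triglyceride in lipid droplets, which are coated by perilipins and enlarged by proteins of the CIDE family. White adipocytes hold 1 large droplet and secrete hormones into the blood, whereas brown adipocytes hold many small droplets and burn fat for heat through UCP1 in their mitochondria. The heart surface carries some adipose tissue outside the muscle wall, and cardiomyocytes themselves burn fatty acids and share many genes of lipid handling with adipocytes.

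The sequence upstream of the transcription start is shown for Cidec and Adig, on which the group was chosen, for Adipoq, which defines adipocytes, and for Cfd, which held matches to the motif searched for ZEB proteins. ZEB2 is a zinc finger repressor that binds DNA around the core CACCT. The sequences come from the set of RefSeq starts used here (GRCm38.p6), which had entries for 8 of the 10 members and none for Cidea and Car3. Each sequence runs 5′ to 3′ on the strand of the gene over the 250 bases before the start. The windows are chr6:113435761-113436010 on the minus strand for Cidec, chr2:158502362-158502611 on the plus strand for Adig, chr16:23146286-23146535 on the plus strand for Adipoq and chr10:79890603-79890852 on the plus strand for Cfd. None of the 4 windows overlaps an annotated exon. Capitals mark CACCT, the nuclear receptor half-site AGGTCA and the TATA box TATAAA, each read on both strands (on the other strand AGGTG for the ZEB core, TGACCT for the half-site and TTTATA for the TATA box).
Cidec: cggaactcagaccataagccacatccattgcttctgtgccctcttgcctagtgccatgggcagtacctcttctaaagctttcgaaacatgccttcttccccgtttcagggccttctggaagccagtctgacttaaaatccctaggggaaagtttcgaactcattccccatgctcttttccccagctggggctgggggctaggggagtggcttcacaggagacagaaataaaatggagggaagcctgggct
Adig: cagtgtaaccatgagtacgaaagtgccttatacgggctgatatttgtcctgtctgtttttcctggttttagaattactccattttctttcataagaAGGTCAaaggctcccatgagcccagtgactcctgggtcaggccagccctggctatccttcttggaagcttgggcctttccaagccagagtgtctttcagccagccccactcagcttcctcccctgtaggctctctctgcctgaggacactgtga
Adipoq: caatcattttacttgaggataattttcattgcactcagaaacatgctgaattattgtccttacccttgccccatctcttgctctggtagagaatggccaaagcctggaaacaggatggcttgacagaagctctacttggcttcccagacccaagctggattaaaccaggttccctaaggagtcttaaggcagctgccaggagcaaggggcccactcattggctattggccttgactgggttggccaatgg
Cfd: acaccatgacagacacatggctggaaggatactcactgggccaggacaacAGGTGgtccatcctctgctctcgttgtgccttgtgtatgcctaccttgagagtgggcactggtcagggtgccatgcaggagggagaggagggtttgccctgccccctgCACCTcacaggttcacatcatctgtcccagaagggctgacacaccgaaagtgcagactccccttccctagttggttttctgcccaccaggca
CACCT stood upstream of the first listed start in 4 of the 8 members (Plin1, Cfd, Retn and Ucp1), beside 46.0% of 32851 such windows in the RefSeq table. AGGTCA stood in 2 of the 8, at -154 in Adig and in Ucp1, beside 14.0% of all windows. TATAAA stood in 0 of the 8, beside 12.4% of all windows. Cidec has another listed start inside the gene, and CACCT occurred 3 times before that one. Matches did not overlap each other, and they describe these letters only, not binding.

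RNA without ribosomal RNA was sequenced, and the authors deposited raw counts per gene. The libraries held between 37288174 and 51136331 counts, and the 37 mitochondrially encoded genes left at least 14301225 of them to all other genes. Levels are in CPM, each count divided by the size of its library after TMM normalization, on which 3 counts, the least taken here as a reading, stand for 0.0558 to 0.0796 CPM depending on the library. WT replicate 2 stood apart from the other 5 libraries. Its summed scar matrix genes were at 7380 CPM beside 942 to 1670 CPM in the others, and its cardiomyocyte genes at 5050 CPM beside 11100 to 14200 CPM. Zeb2 was at 83.0 ± 29.0 CPM in WT and 66.2 ± 6.51 CPM in the Zeb2 cKO group (SD, n = 3), a log2 fold change of -0.33 ± 0.25 (SE, edgeR adjusted p = 0.957) and an exact permutation p of 0.5 (two-sided), where 3 mice against 3 cannot go below 0.1. WT replicate 2 was at 116 CPM of Zeb2, beside 61.3 and 71.9 CPM in the other WT libraries, and without it the log2 fold change was -0.0058. With any other single library left out, it lay between -0.504 (without WT replicate 1) and -0.257 (without Zeb2 cKO replicate 1). The count of Zeb2 includes cells other than cardiomyocytes and exons outside the floxed part. In bulk tissue, fewer cells of a type and less RNA per cell cannot be told apart.

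Members of the lipid droplet machinery came first. Cidec (ENSMUSG00000030278, chromosome 6, 113424634 to 113435760, minus strand) encodes the CIDE protein that fuses lipid droplets in white adipocytes. It had 2, 3 and 3 counts in WT replicates 1, 2 and 3, and 23, 10 and 10 counts in Zeb2 cKO replicates 1, 2 and 3. All Zeb2 cKO libraries lay above all WT libraries, and Zeb2 cKO replicate 1 was the highest. The mean level was 0.0665 ± 0.0126 CPM in WT and 0.292 ± 0.147 CPM in the Zeb2 cKO group (SD, n = 3). The ratio of the pooled counts, scaled by library size, was 4.38 with a 95% interval of 2.04 to 10.8. This interval and those that follow are exact, conditional on the sum of the counts, and cover counting error only.

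Plin1 (ENSMUSG00000030546, chromosome 7, 79720218 to 79732903, minus strand) encodes perilipin 1, the coat protein that guards the adipocyte droplet against lipases. It had 2, 1 and 2 counts in the WT libraries and 13, 3 and 4 counts in the Zeb2 cKO libraries. The groups did not overlap, but Zeb2 cKO replicates 2 and 3 were only slightly above the WT libraries. The pooled ratio was 3.26 (95% interval 1.19 to 11.1). Of the longest Plin1 transcript, 4.69% was shared with other genes at an identity of at least 95% over at least 75 bases, and the other members shared no such stretch.

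Cidea (ENSMUSG00000024526, chromosome 18, 67343604 to 67367785, plus strand) encodes the CIDE protein known from brown adipocytes. It had 325, 226 and 374 counts in WT and 591, 371 and 704 counts in Zeb2 cKO libraries, many more than any other member. On the CPM scale it was at 8.62, 5.15 and 9.73 in WT and at 11.8, 8.55 and 13.1 in Zeb2 cKO hearts. The groups overlapped, since Zeb2 cKO replicate 2 lay below WT replicates 1 and 3. Its log2 fold change was 0.51 ± 0.27 (SE), and without WT replicate 2, the lowest library, it was 0.29. The antisense gene B430212C06Rik runs across the Cidea locus without sharing exon bases and had 79 counts over the 6 libraries.

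Adig (ENSMUSG00000044405, chromosome 2, 158502612 to 158508198, plus strand) encodes adipogenin, a small membrane protein made during adipocyte differentiation. It had 4, 3 and 3 counts in WT and 20, 10 and 15 counts in Zeb2 cKO libraries. The groups did not overlap, and the 3 Zeb2 cKO libraries were closer to each other than for any other white marker above 3 counts. The mean was 0.0842 ± 0.0196 CPM in WT and 0.303 ± 0.0871 CPM in Zeb2 cKO hearts, with a log2 fold change of 1.83 ± 0.41 (SE) and a pooled ratio of 3.67 (95% interval 1.82 to 8.16).

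**Figure D1:**
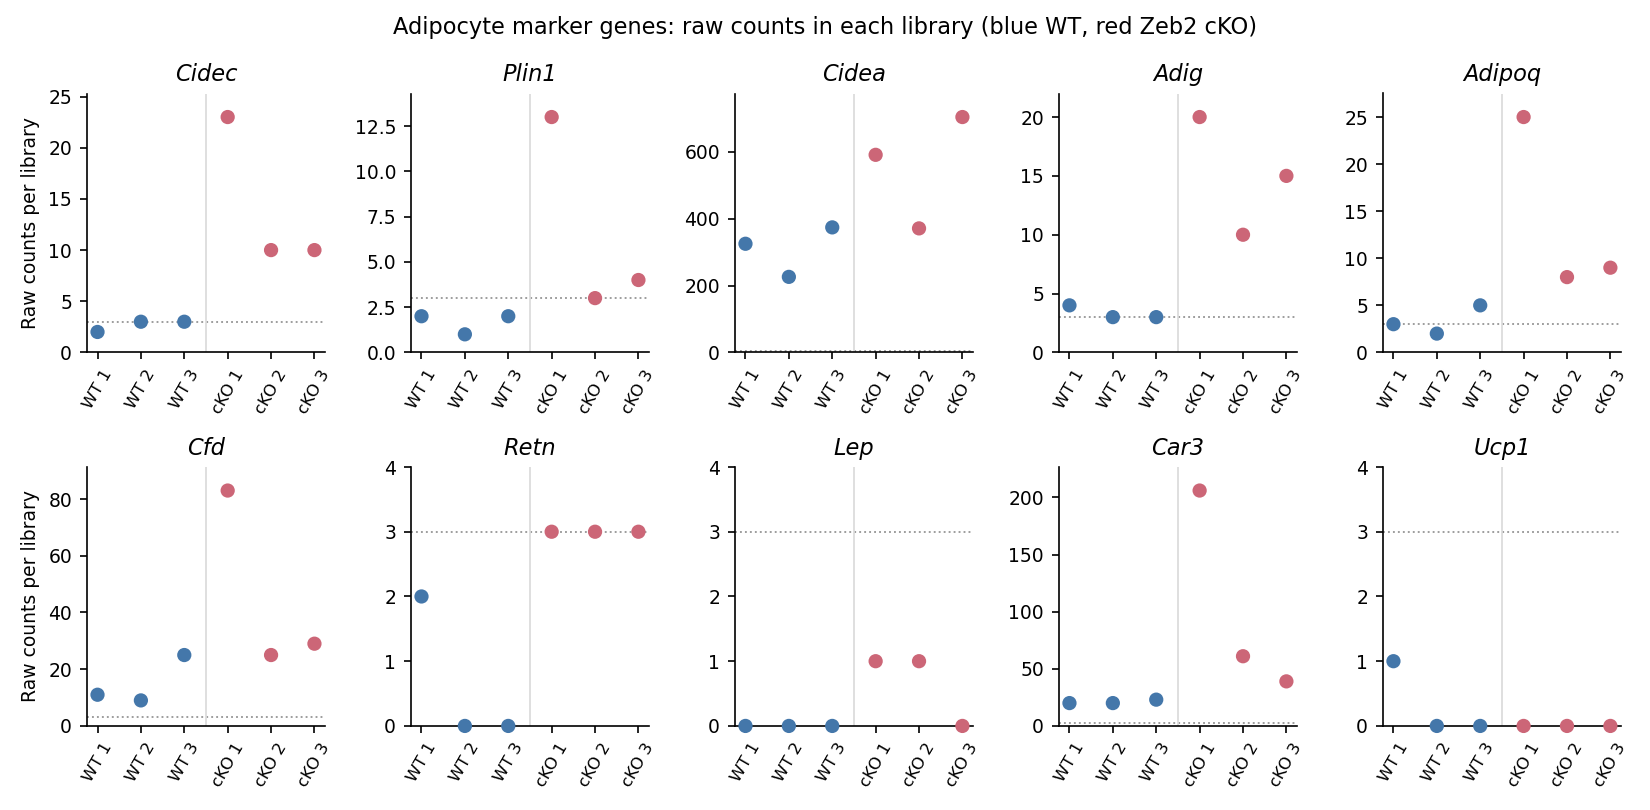
Raw counts (vertical axis, a separate linear scale in each panel) of the 10 marker genes in each library (horizontal axis; blue, WT; red, Zeb2 cKO; 1 point per library); the dotted line is at 3 counts. Cidec, Plin1, Adig, Adipoq, Cfd and Car3 were highest in Zeb2 cKO replicate 1, Cidea was highest in Zeb2 cKO replicate 3, and Retn, Lep and Ucp1 did not exceed 3 counts in any library.

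The secreted adipokines followed. Adipoq (ENSMUSG00000022878, chromosome 16, 23146536 to 23158028, plus strand) encodes adiponectin, a hormone made by adipocytes. It had 3, 2 and 5 counts in WT and 25, 8 and 9 counts in Zeb2 cKO libraries. The groups did not overlap, with Zeb2 cKO replicate 1 far above the others. The mean was 0.0851 ± 0.0426 CPM in WT and 0.284 ± 0.187 CPM in Zeb2 cKO hearts, and the pooled ratio was 3.42 (95% interval 1.69 to 7.65). Cfd (ENSMUSG00000061780, chromosome 10, 79890853 to 79892655, plus strand) encodes adipsin, the complement factor D secreted by adipocytes. It had 11, 9 and 25 counts in WT and 83, 25 and 29 counts in Zeb2 cKO libraries. The groups overlapped, since WT replicate 3 was at 0.651 CPM and Zeb2 cKO replicates 2 and 3 were at 0.576 and 0.539 CPM. Its log2 fold change was 1.28 ± 0.61 (SE), and without Zeb2 cKO replicate 1 it was 0.55.

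Retn (ENSMUSG00000012705, chromosome 8, 3655770 to 3660110, plus strand) encodes resistin, another adipokine. It had 2, 0 and 0 counts in WT and 3 counts in each Zeb2 cKO library. Although no Zeb2 cKO library lay below a WT library, Zeb2 cKO replicate 3 was at 0.0558 CPM and WT replicate 1 at 0.0531 CPM, and no fold is given. Lep (ENSMUSG00000059201, chromosome 6, 29060220 to 29073877, plus strand) encodes leptin, the satiety hormone of white fat, and had 0 counts in all WT libraries and 1, 1 and 0 counts in Zeb2 cKO libraries. Both genes were too low for a difference to be detectable at this depth.

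Car3 (ENSMUSG00000027559, chromosome 3, 14863512 to 14872523, plus strand) encodes carbonic anhydrase III, which is abundant in white adipocytes and also in skeletal muscle. It had 20, 20 and 23 counts in WT and 206, 61 and 39 counts in Zeb2 cKO libraries. In CPM this was 0.531, 0.456 and 0.599 in WT and 4.11, 1.41 and 0.725 in Zeb2 cKO hearts, so that the groups did not overlap and the WT libraries were close together. The log2 fold change of 1.98 ± 0.64 (SE) went to 1.00 without Zeb2 cKO replicate 1. Ucp1 (ENSMUSG00000031710, chromosome 8, 83290352 to 83298452, plus strand), the uncoupling protein that defines brown adipocytes, had 1 count in WT replicate 1 and 0 in the other 5 libraries. Ucp1 was thus under 3 counts throughout, which allows a level of up to 0.0558 to 0.0796 CPM per library.

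All Zeb2 cKO libraries lay above all WT libraries in CPM for 6 of the 10 members (Cidec, Plin1, Adig, Adipoq, Retn and Car3). These were 6 of the 8 white or general markers and 0 of the 2 brown markers. Across the table the same order was found in 3.27% of the 24115 genes with a count, and in 3.39% of the 14746 genes kept for the edgeR test by a filter on low counts. Because the group was selected on this contrast, nothing is read from the count. Only Adig, Cfd, Cidea and Car3 passed the filter, and Adig no longer passed it when mitochondrially encoded genes were left out. In the edgeR quasi-likelihood test of all filtered genes, 0 (0.0%) reached a Benjamini-Hochberg adjusted p under 0.05, beside 280 at an unadjusted p under 0.05. DESeq2 called 2 genes, with 361 at an unadjusted p under 0.05, and no member was among the calls of either tool.

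Levels of different genes were compared per kilobase of exon, as RPKM. Cidea was the highest at 4.62 to 11.7 RPKM, above every library of every other member. Cfd came next at 0.222 to 1.80 RPKM, and Car3, at 0.159 to 1.44 RPKM, lay below Cfd in WT libraries (0.159 to 0.209 beside 0.222 to 0.706 RPKM) and overlapped it in Zeb2 cKO libraries. Adig ran from 0.0844 to 0.493 RPKM, Adipoq from 0.033 to 0.362 RPKM and Cidec from 0.0286 to 0.248 RPKM, and each overlapped its neighbour in this order in both genotypes. Plin1 lay lower, at 0.0049 to 0.0559 RPKM, although it has the longest exon sequence of the members (4649 bases), and it overlapped Retn, which was at 0.0438 RPKM or less. Of the brown markers, Cidea was thus at the top of the order, whereas Ucp1 was at 0 RPKM in 5 of 6 libraries. Lep was at 0 RPKM in 4 of 6 libraries, and neither was above the reading limit of 3 counts.

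**Figure D2:**
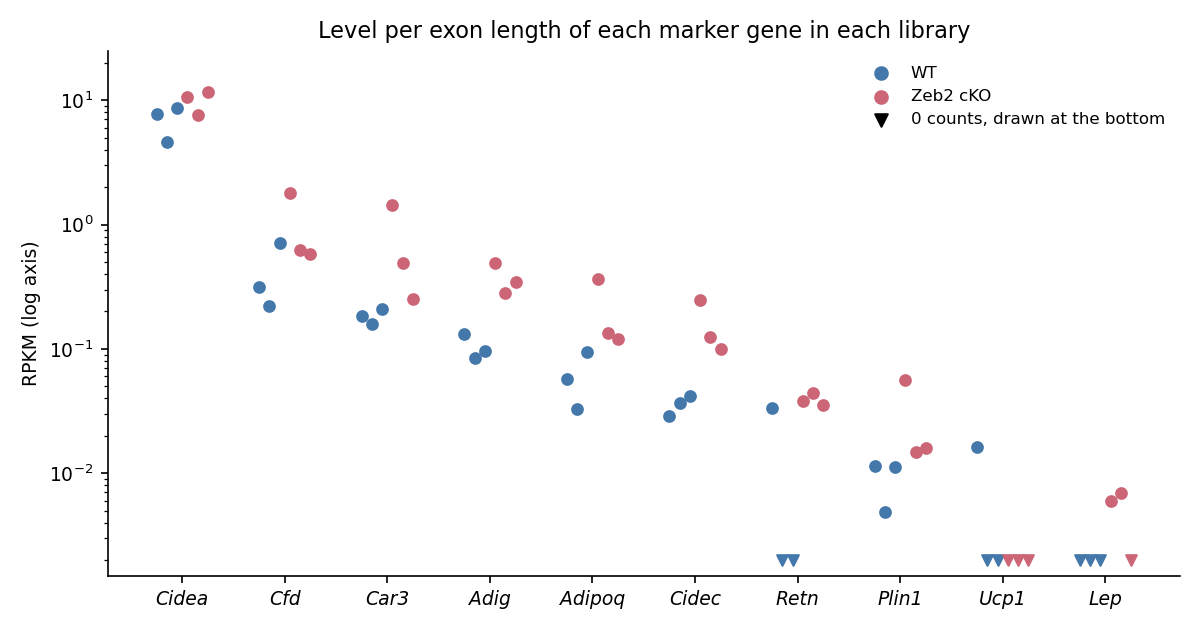
RPKM (logarithmic axis) of each marker gene in each library, ordered by the mean over all libraries (blue, WT; red, Zeb2 cKO; left to right within a gene, WT replicates 1 to 3 and Zeb2 cKO replicates 1 to 3; triangles at the bottom mark 0 counts). Cidea lay between 4.62 and 11.7 RPKM, whereas Cidec, Adig, Adipoq and Plin1 did not exceed 0.493 RPKM.

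White and brown markers were then compared as sums. The 8 white or general members together had 44, 38 and 61 counts in WT and 374, 121 and 109 counts in Zeb2 cKO libraries. In CPM the sums were 1.17, 0.865 and 1.59 in WT and 7.47, 2.79 and 2.03 in Zeb2 cKO hearts, without overlap. The mean log2 difference was 1.57, with a pooled SD of 0.76 between replicates, and it was 1.02 without Zeb2 cKO replicate 1. Car3 made up 50.7% and Cfd 22.7% of the white counts in Zeb2 cKO hearts, and 44.1% and 31.5% in WT hearts. Without Car3 the mean log2 difference was 1.52, and without Car3 and Cfd it was 1.82.

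The brown sum was 926 counts in WT and 1666 counts in Zeb2 cKO hearts, and all but 1 of these belonged to Cidea. Its mean log2 difference was 0.54, with a pooled SD of 0.41, its groups overlapped, and without WT replicate 2 it was 0.26. The difference between the white and the brown sum was 1.04 on the log2 scale (pooled SD 0.73). It sets the white members against Cidea, since Ucp1 added only 1 count. Whether the Cidea counts came from brown adipocytes was not tested. White over brown, the ratio of the sums in CPM was 0.135, 0.168 and 0.163 in WT and 0.633, 0.326 and 0.155 in Zeb2 cKO libraries. Zeb2 cKO replicates 1 and 2 thus lay above the WT libraries in this ratio, while Zeb2 cKO replicate 3 lay within the WT range. Without Zeb2 cKO replicate 1, the difference between the sums was 0.54.

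**Figure D3:**
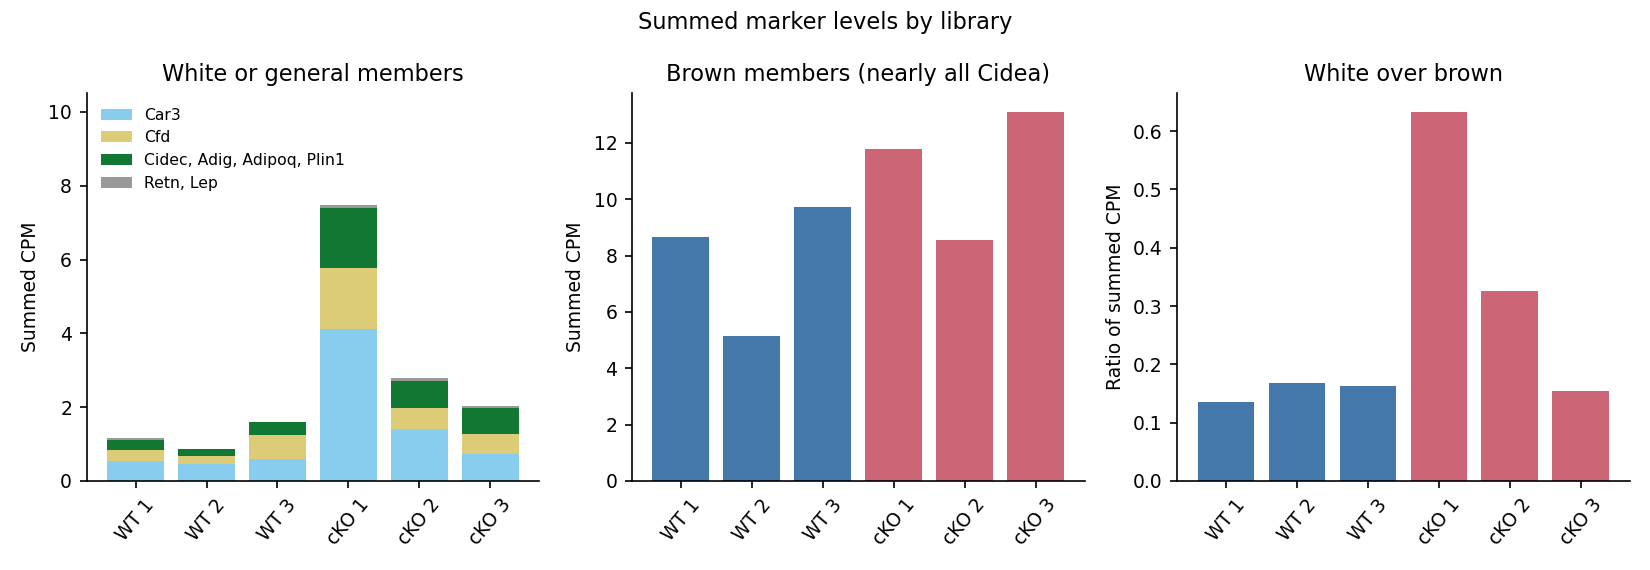
Summed CPM of the 8 white or general members, stacked by gene (left), summed CPM of the 2 brown members (middle) and the ratio of both sums (right), by library (blue, WT; red, Zeb2 cKO in the middle and right panels); all axes are linear and start at 0. The white sum reached 7.47 CPM in Zeb2 cKO replicate 1, and the ratio of 0.155 in Zeb2 cKO replicate 3 was close to the WT libraries.

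Zeb2 cKO replicate 1 set much of the white marker signal. Relative to Zeb2 cKO replicates 2 and 3 pooled, the white sum in replicate 1 was 3.16 times as high (95% interval 2.67 to 3.74). The ratio was 4.0 for Car3 (3.13 to 5.13), 2.98 for Cfd (2.09 to 4.28) and 2.23 for Cidec (1.17 to 4.28). For Adig it was 1.55 (0.818 to 2.91), an interval that includes 1. Cidea was at a ratio of 1.07 (0.964 to 1.18), which also includes 1, and its highest library was Zeb2 cKO replicate 3. Zeb2 cKO replicates 2 and 3 pooled, in turn, were above the 3 WT libraries by 1.99 times in the white sum (1.61 to 2.46), by 3.09 times in Cidec (1.30 to 8.10) and by 3.09 times in Adig (1.43 to 7.20). For Adipoq, Plin1 and Cfd the corresponding intervals (0.908 to 5.13, 0.472 to 6.91 and 0.979 to 2.25) included 1. Car3 was above WT by 1.96 times (1.42 to 2.73) and Cidea by 1.44 times (1.31 to 1.57). These intervals pool the mice and leave out the spread between them. Because the members were selected on this contrast, the intervals are no test of a difference between the genotypes.

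Among themselves, Cidec, Adig, Adipoq and Plin1 had shares whose intervals overlapped between the genotypes. Of their 33 counts in WT hearts, Cidec had 24.2% (exact 95% binomial interval 11.1 to 42.3), Adig 30.3% (15.6 to 48.7), Adipoq 30.3% (15.6 to 48.7) and Plin1 15.2% (5.11 to 31.9). Of their 150 counts in Zeb2 cKO hearts, Cidec had 28.7% (21.6 to 36.6), Adig 30.0% (22.8 to 38), Adipoq 28.0% (21.0 to 35.9) and Plin1 13.3% (8.34 to 19.8). A change in these shares was not detectable at this depth, and the WT intervals are wide. For each count of these 4 genes there were 1.82, 2.22 and 1.77 Car3 counts in WT and 2.54, 1.97 and 1.03 in Zeb2 cKO libraries. Of the counts of all 8 white members, Car3 had 55.1% (49.9 to 60.2) in Zeb2 cKO replicate 1 and 35.8% (26.8 to 45.5) in Zeb2 cKO replicate 3, so that its share differed within the genotype by more than counting error.

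The genes whose log2 CPM followed the white sum most closely over the 6 libraries were S100a1, Gm14038, Paip1, Gm11945 and 4732491K20Rik, with Pearson's r of 0.981 to 0.988. S100a1 encodes a calcium-binding protein of heart muscle, and Gm14038 and Gm11945 are processed pseudogenes. Among them, S100a1 was at 171, 156 and 177 CPM in WT and 228, 188 and 179 CPM in Zeb2 cKO libraries, and 4732491K20Rik ran from 1.94 to 4.03 CPM over the 6 libraries. These r values are the highest among 14746 genes over only 6 libraries and are given as a description.

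Other genes of adipocytes were taken from lists that did not use the members. In the list of adipocyte-restricted genes, 9 of 16 passed the filter, 0 were called in either direction, and 6 of the 9 had a log2 fold change above 0, with a median of 0.073 beside -0.0069 over all tested genes. Without WT replicate 2, 4 of the 9 were above 0 and the median was -0.012. The mean WT levels of the 9 ran from 0.26 CPM for Cyp2e1 to 7.3 CPM for Aoc3, beside 0.0851 CPM for Adipoq. From which cells their counts came was not tested. Cyp2e1, a cytochrome P450 of liver and fat, had 15, 3 and 12 counts in WT and 72, 26 and 14 counts in Zeb2 cKO libraries, with a log2 fold change of 1.57 ± 0.77 (SE, edgeR adjusted p = 0.957). Like Cidec, Plin1, Adig, Adipoq, Cfd and Car3, Cyp2e1 was highest in Zeb2 cKO replicate 1, 3.49 times above the other 2 (95% interval 2.34 to 5.28). The Cyp2e1 groups overlapped, however, and without that library its log2 fold change was 0.73. Thrsp, a lipogenic gene, had a log2 fold change of 0.62 ± 0.54 (SE) and Sncg, a synuclein of fat and nerve, one of 0.33 ± 0.27 (SE), both at an adjusted p of 0.957. Pparg, the master regulator of adipocyte differentiation, was at 4.88 ± 0.693 CPM in WT and 5.2 ± 0.384 CPM in Zeb2 cKO hearts. Cebpa, its partner factor, was at 2.82 ± 2.09 and 2.12 ± 0.0865 CPM, and WT replicate 2 alone was at 5.24 CPM. Both had overlapping groups.

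The 7 genes of that list under the filter were chosen for mention after their values were seen. Nnat, an imprinted gene of adipocytes and neurons, had 0 counts in WT and 5, 3 and 1 counts in Zeb2 cKO libraries. Pck1, an enzyme of glyceroneogenesis, had 17, 2 and 3 counts in WT and 18, 6 and 8 counts in Zeb2 cKO libraries, and WT replicate 1 was the highest library in CPM. Rbp4, which encodes the retinol carrier of liver and fat, ran the other way, with 8, 28 and 7 counts in WT and 7, 4 and 4 counts in Zeb2 cKO libraries. Acvr1c had between 3 and 11 counts in every library, with overlapping groups. Lgals12, Adrb3 and Slc7a10 had at most 4 counts in any library.

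All 18 adipocyte genes that heart muscle also uses passed the filter, 0 were called, and 12 of 18 had a log2 fold change above 0 (median 0.18). Without WT replicate 2 this became 8 of 18 with a median of -0.007. Fabp4, the fatty acid carrier of adipocytes and capillary endothelium, was at 157 ± 28.0 CPM in WT and 182 ± 29.3 CPM in Zeb2 cKO hearts. Lpl, the lipase that releases fatty acids from lipoproteins, was at 1300 ± 430 CPM and 1310 ± 59.6 CPM. Dgat2, the last enzyme of triglyceride synthesis, had a log2 fold change of 0.61 ± 0.48 (SE) and Scd1, the stearoyl-CoA desaturase, of -0.36 ± 0.25 (SE), each with an edgeR adjusted p of 0.957. Without WT replicate 2 these were 0.205 for Dgat2 and -0.064 for Scd1.

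Of 10 further brown-restricted genes, 3 passed the filter and 0 were called (median log2 fold change -0.18, and 0.041 without WT replicate 2). Dio2, the deiodinase that activates thyroid hormone in brown fat, was at 9.95, 37.5 and 22.1 CPM in WT and at 4.93, 8.13 and 21.2 CPM in Zeb2 cKO libraries. Its log2 fold change of -1.02 ± 0.64 (SE, edgeR adjusted p = 0.957) was -0.48 without WT replicate 2. Prdm16, the brown fate regulator, was at 7.29 ± 1.77 CPM in WT and 8.56 ± 1.08 CPM in Zeb2 cKO hearts, and Ebf2 at 12.7 ± 3.07 and 11.2 ± 1.37 CPM. From which cells the counts of Dio2, Prdm16 and Ebf2 came was not tested. Lhx8 and Bmp8b had 0 counts in all libraries, Elovl3, Zic1, Otop1 and Slc27a2 at most 5 counts in any library, and Cited1 at most 9. Of 8 brown fat genes shared with heart, such as Cpt1b, Pank1 and Cox7a1, all had a log2 fold change above 0 (median 0.15), but without WT replicate 2 only 2 of 8 did (median -0.037), and 0 were called.

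The other CIDE and perilipin genes were Cideb, Plin2 and Plin3, of which 0 were called and 3 of 3 had a log2 fold change above 0. Cideb, best known from liver, was at 0.503 ± 0.199 CPM in WT and 0.745 ± 0.107 CPM in Zeb2 cKO hearts, with a log2 fold change of 0.57 ± 0.36 (SE, edgeR adjusted p = 0.957) that was 0.27 without WT replicate 2. Its groups were apart only by 0.639 CPM in Zeb2 cKO replicate 1 against 0.625 CPM in WT replicate 3. Plin3 had a log2 fold change of 0.34 ± 0.24 (SE), or 0.12 without WT replicate 2, and Plin2, the main droplet coat outside fat, was at 26.5 ± 2.60 and 27.0 ± 4.80 CPM. Of 5 adipocyte progenitor genes, 4 passed the filter, 0 were called, and all 4 had a log2 fold change below 0 (median -0.42). Zfp423 was at -0.66, Pi16 at -0.46 and Pdgfra at -0.38. All Zeb2 cKO libraries lay below all WT libraries for Zfp423 and Pi16. The nearest Zfp423 libraries, WT replicate 1 and Zeb2 cKO replicate 3, were both at 3.18 CPM after rounding. Without WT replicate 2 the median was 0.007 and 2 of the 4 were above 0, with Zfp423 at -0.255 and Pi16 at -0.159.

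**Figure D4:**
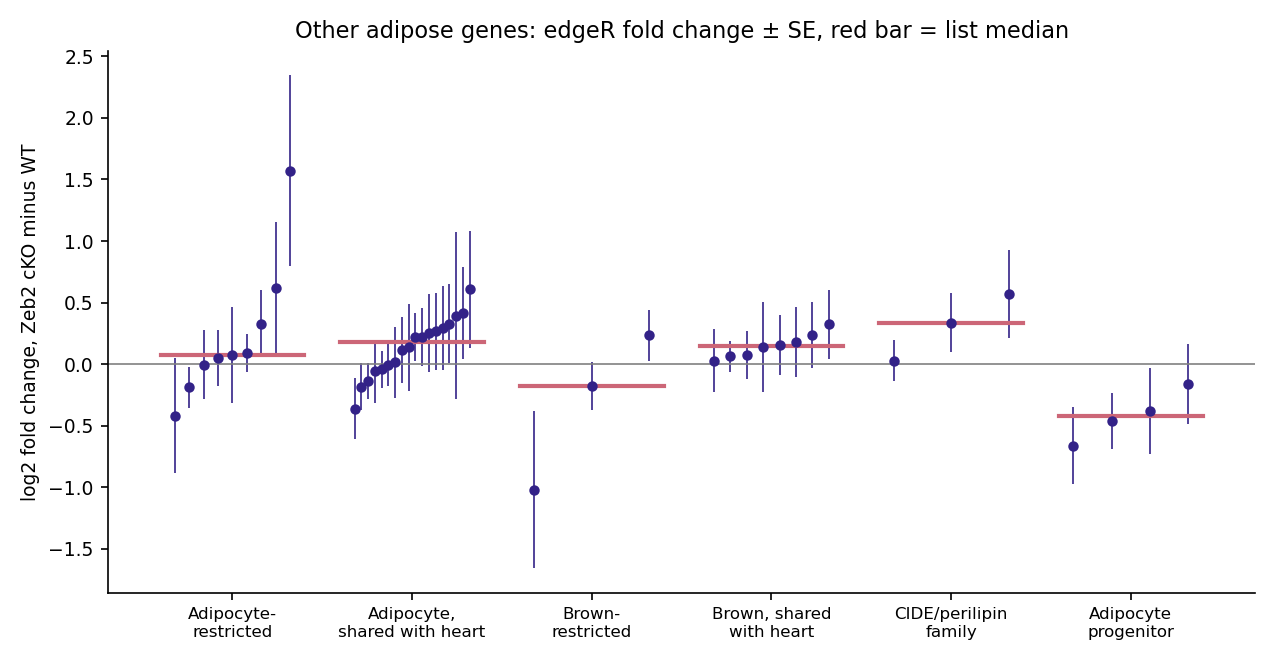
Log2 fold changes (Zeb2 cKO minus WT, vertical axis) from edgeR with standard errors for the tested genes of 6 lists of other adipose genes (horizontal axis); red bars mark the median of each list. The list medians lay between -0.42 for the progenitor genes and 0.34 for the CIDE and perilipin genes, and Cyp2e1 at 1.57 was the highest gene.

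Markers of other cell types were set beside the white members, library by library. Skeletal muscle, which also makes Car3, was read from 11 genes, 1 of which, Mybpc2, had 371 to 1849 counts per library and made up most of the sum. The sum of all 11 was 9.84 to 20.3 CPM in WT and 20.5 to 38.9 CPM in Zeb2 cKO libraries. The other 10 summed to 0.929 to 1.39 CPM in WT and 1.08 to 1.98 CPM in Zeb2 cKO libraries, highest in Zeb2 cKO replicate 1, and Myh1, Myh2 and Myh4, the defining fast myosins, had at most 6 counts in any library. The summed mesothelial genes (9 in the table) ran from 6.72 to 13.2 CPM in WT and from 8.47 to 11.3 CPM in Zeb2 cKO libraries, with WT replicate 2 highest. The 10 lymphocyte genes ran from 1.17 to 3.67 CPM and from 1.02 to 2.01 CPM, with Rag1 and Ptcra at 0 throughout. Macrophage genes summed to 85.2 to 248 CPM in WT and 105 to 115 CPM in Zeb2 cKO hearts. Apart from the skeletal muscle sum with Mybpc2, these sums overlapped between the genotypes, and the part of any of these cells, or of the place where the tissue was cut, in the levels of the members was not tested. The white sum of WT replicate 2, whose matrix and macrophage genes stood apart, was 0.865 CPM, the lowest of the 6. With both WT replicate 2 and Zeb2 cKO replicate 1 left out, 6 of the 10 members had both Zeb2 cKO libraries above both WT libraries, beside 12.3% of the 24115 genes with a count in this smaller comparison.

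**Figure D5:**
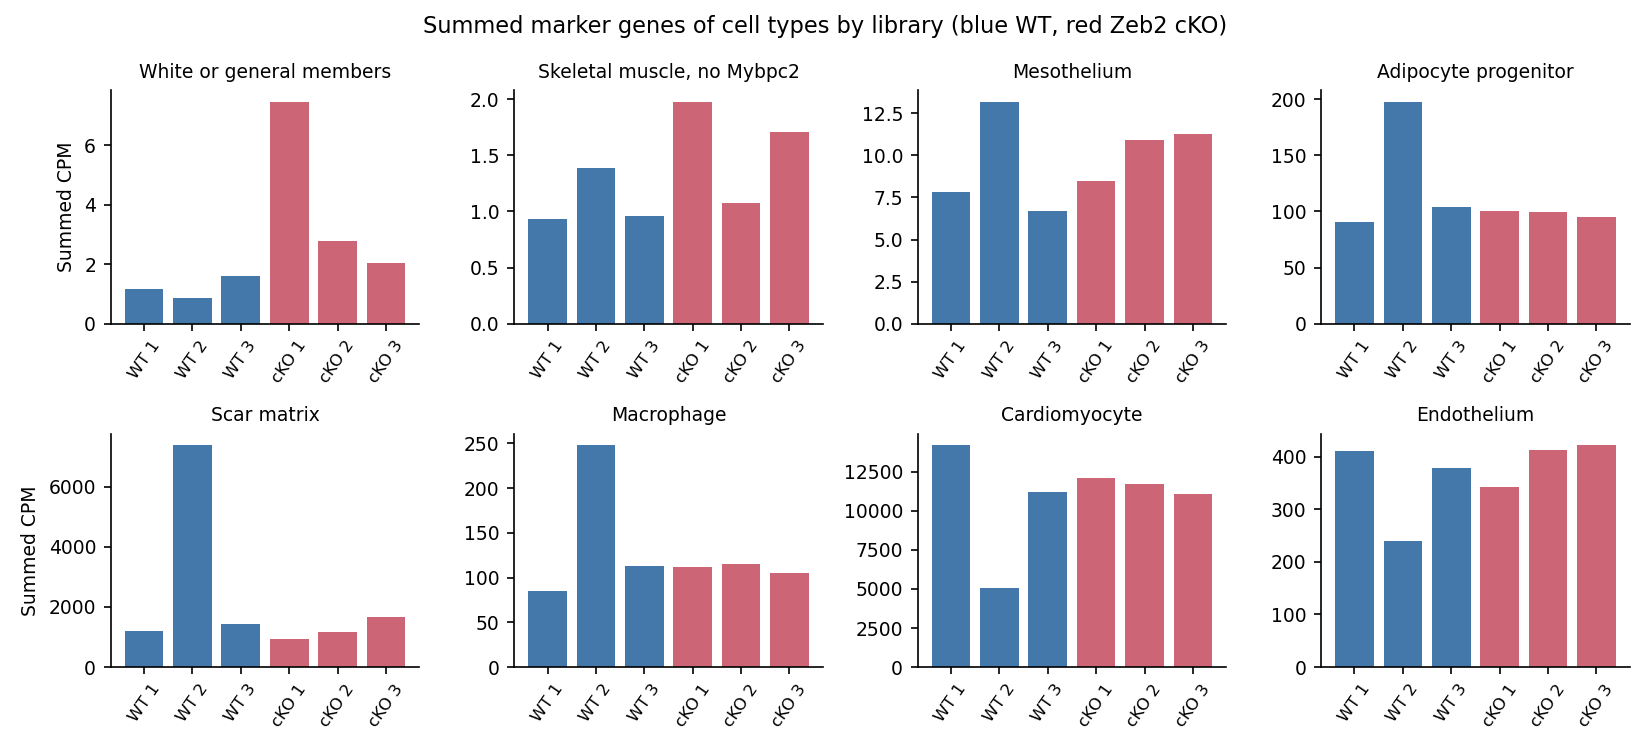
Summed CPM (vertical axes, linear from 0, a separate scale in each panel) of the white or general members and of marker genes of 7 cell types in each library (blue, WT; red, Zeb2 cKO). The white members peaked in Zeb2 cKO replicate 1 at 7.47 CPM, whereas scar matrix and macrophage genes peaked in WT replicate 2 at 7380 and 248 CPM.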

How the data were processed

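RNA-seq of heart tissue from 3 WT and 3 Zeb2 cKO mice was used, grouped by the sample labels. Raw counts of Gencode M4 genes (GRCm38), made by the authors with the STAR workflow, were deposited as 1 table. The STAR version, the strand option and the handling of reads mapping to several places are not given in the sources used here. Counts were normalized with TMM and tested with glmQLFTest of edgeR 4.0.16 (R 4.3.3) after filterByExpr, with genotype as the factor and Benjamini-Hochberg adjustment over 14746 genes. The prior count of log2 fold changes was 0.125. DESeq2 1.42.0 was an alternative, and the steps were tested on simulated data. Coordinates and exon lengths came from Gencode M21, and BLAST 2.17.0 was used to find near-identical copies. Of the 6 columns, 0 were unmatched.

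The members and lists were chosen with earlier results of these data known. Genes named were the 10 members, Zeb2, genes of each companion list past an adjusted p of 0.05 or else the 3 with the smallest unadjusted p, Pparg, Cebpa, Fabp4, Lpl, Dio2 and Prdm16, and the 5 genes most correlated with the white sum (on log2 of CPM plus 0.1). Genes under the filter were named after their values were seen. Depth limits the precision of members with a few counts, and for the others the spread between mice does. Alternatives covered normalization, the filter, the test, mitochondrially encoded genes, the replicate number and each library left out. Other measurements of the paper were not analysed here.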

Additional observations from a re-analysis of the deposited data

How the results depend on the processing

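The number of genes past an adjusted p of 0.05 was 0 with edgeR and 2 with DESeq2, neither a member, and 0 in all 10 other alternatives. Without mitochondrially encoded genes, only 3 members (Cfd, Cidea and Car3) were tested, since Adig fell under the filter. The number of members with all Zeb2 cKO libraries above all WT libraries was 6 or 7 under every alternative but the replicate block. Retn, at 3 or fewer counts in every library, is 1 of the 6 in the main comparison. With 1 library left out, the order of all Zeb2 cKO above all WT libraries is easier to reach. It was then shown by 6.06% to 9.74% of all genes with a count. The white minus brown difference of 1.04 (log2) ranged from 0.54 without Zeb2 cKO replicate 1 to 1.55 without Zeb2 cKO replicate 3, and the log2 fold change of Car3 fell from 1.98 to 1.00 without Zeb2 cKO replicate 1. Several choices were made after seeing the data. These were the white sums without Car3, or without Car3 and Cfd, and the skeletal muscle sum without Mybpc2. The joint removal of WT replicate 2 and Zeb2 cKO replicate 1 was also such a choice. Replicate numbers do not pair the samples: deviations of same-numbered libraries correlated at 0.103, -0.16 and -0.14. With a replicate block, 247 genes had an unadjusted p under 0.05, 0 passed adjustment, and 7 members had every Zeb2 cKO library above the WT library of its number, as had 8.73% of genes with a count. Retn, Lep and Ucp1, at 3 or fewer counts in all libraries, could not be compared at this depth. Cidec, Plin1, Adig and Adipoq are limited both by few counts and by 3 mice per group, and Cidea, Cfd and Car3 mostly by the spread between mice.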

Other observations

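Among the 11 skeletal muscle markers, 2 had all Zeb2 cKO libraries above all WT libraries, beside 3.27% of all genes with a count, and they are named here after their values were seen. Mybpc2, a fast-type myosin-binding protein, had 731, 371 and 682 counts in WT and 1849, 843 and 1678 counts in Zeb2 cKO libraries, with a log2 fold change of 0.94 ± 0.36 (SE, edgeR adjusted p = 0.957). Tnni2, the fast skeletal troponin I, had 6, 12 and 6 counts in WT and 19, 14 and 18 counts in Zeb2 cKO libraries, with a log2 fold change of 0.80 ± 0.34 (SE, edgeR adjusted p = 0.957). Atp2a1, the calcium pump of fast skeletal muscle, had 1, 3 and 4 counts in WT and 26, 4 and 14 counts in Zeb2 cKO libraries, with 4 counts in WT replicate 3 and in Zeb2 cKO replicate 2. Like Car3, Atp2a1 and Mybpc2 were highest in Zeb2 cKO replicate 1, at 0.519 and 36.9 CPM. Within the Zeb2 cKO group they were lowest in replicate 2, as were Adig and Plin1, whereas Car3 was lowest in replicate 3. Mybpc2 and Tnni2 did not pass the adjusted threshold, and Atp2a1 was under the filter. Actn3 ran the other way, with all Zeb2 cKO libraries below all WT libraries in CPM. It had only 1, 3 and 1 counts in WT and 1, 0 and 1 counts in Zeb2 cKO libraries. Of the 11 markers, only Actn3, Myh1 and Myh2 had pooled ratios below 1, at 0.326, 0.571 and 0.593. Their counting intervals (0.031 to 1.99, 0.184 to 1.66 and 0.207 to 1.62) included 1, and these genes were under the filter. The relation of the skeletal muscle markers to Car3 was not tested.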
